A study of Mus musculus with 9 samples.

Results

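The insulin-like growth factor (IGF) family described here comprised 10 genes of the 54232 counted in every library. They were the ligands Igf1 and Igf2, the receptors Igf1r and Igf2r, and the binding proteins Igfbp2, Igfbp3, Igfbp4, Igfbp5, Igfbp6 and Igfbp7, chosen as a gene family by symbol, and each of the 10 matched exactly 1 Ensembl gene. RNA was sequenced from the cochlear ducts of 9 embryos at E14.5, of which 3 were WT, 3 were heterozygous for Prdm16 cGT and 3 were Prdm16 cGT null. Prdm16 cGT is a gene trap null allele on an FVB/NJ background that is not limited to the ear, so heterozygotes carry 1 trapped allele and null embryos carry it on both chromosomes, while WT embryos are Prdm16 +/+ and no group has a stated treatment. The labels give 3 littermates per genotype but not which embryos shared a litter. One library was made per embryo from both ears, as whole dissected tissue without sorting. In such bulk RNA, fewer cells of a type and less RNA per cell cannot be told apart.

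IGF1 and IGF2 are secreted peptides that signal through the receptor tyrosine kinase encoded by Igf1r, while the product of Igf2r, the mannose 6-phosphate receptor, takes up IGF2 and delivers it to lysosomes. IGF binding proteins hold the ligands outside the cell and are cut by dedicated proteases, which frees the ligands. In the inner ear the family is known for Igf1, whose loss in mice and people causes hearing loss. Igf2 is expressed from the paternal allele and Igf2r in most mouse tissues from the maternal one.

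Prdm16, the targeted gene, measured 202 ± 20.2 CPM (SD, n = 3) in WT, 138 ± 14.2 in heterozygotes and 23.4 ± 4.17 in null embryos, so that null ducts held 11.6% of the WT level and the 3 genotypes did not overlap. CPM is the count scaled to a common library size after TMM normalization, which corrects for differences in composition. Totals per library lay between 24095322 and 30819118 counts, and a count of 3, taken as the floor of a library, corresponded to 0.0973 to 0.125 CPM. Summed markers of Kölliker's organ (KO) were 3377 to 4176 CPM in WT, 3176 to 3941 in heterozygotes and 1716 to 2014 in null embryos. Markers of the duct roof rose instead, from 8048 to 9436 CPM in WT to 9589 to 10119 in heterozygotes and 10812 to 14188 in null embryos. Those of the prosensory domain summed to 566 to 607, 690 to 727 and 667 to 873 CPM in the same order. Those of the outer sulcus summed to 1234 to 1416, 1301 to 1561 and 1449 to 2030 CPM. Markers of tissues around the duct separated the libraries in another way. All 10 mesenchyme markers were higher in WT 1, WT 2 and Null 3 than in each of the other 6 libraries (summed 613 to 1504 CPM against 37.7 to 117), as were 6 of 6 endothelium markers (45.5 to 78.6 against 2.55 to 6.09). Null 3 was also highest in 6 of 6 cartilage markers, at 14365 CPM in sum against 6025 to 7128 in the other 8 libraries. Among those 8 the cartilage sum did not follow the mesenchyme sum. Null 2 and WT 2 had 6582 and 6651 CPM for cartilage beside 37.7 and 1115 CPM for mesenchyme. Which cells gave this baseline of cartilage markers was not tested. No mesenchyme or cartilage marker was at 0 in any library, and some endothelium markers were. An added fit, chosen after the data were seen, left out these 3 libraries. Its WT arm is WT 3 alone, which is assumed to vary like the heterozygote and null embryos that supply the spread, so its p-values against WT rest on that assumption. Of the 6 libraries kept, WT 3 had the highest mesenchyme sum, 117 CPM. Null 1 and Null 2 had 65.1 and 37.7 CPM, and the heterozygotes 54.2 to 104. Values from this fit are given below for some of the genes.

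The family members lie at chr10:87858265-87937042 (Igf1), chr7:142650766-142666816 (Igf2), chr7:67952827-68233668 (Igf1r), chr17:12682406-12769664 (Igf2r), chr1:72824503-72852474 (Igfbp2), chr11:7206086-7213923 (Igfbp3), chr11:99041244-99054392 (Igfbp4), chr1:72857932-72874884 (Igfbp5), chr15:102144362-102149511 (Igfbp6) and chr5:77349240-77408041 (Igfbp7) of mm10. Igf1, Igf1r, Igfbp2, Igfbp4 and Igfbp6 are on the plus strand. Igfbp2 and Igfbp5 are neighbours on chromosome 1 and run towards each other. Igf2 needs a caution on how it was counted, since 3596 of its 5723 exon bases are shared with Gm49394, an annotated read-through gene on the same strand, and 98 with the antisense gene Igf2os. Gm49394 was listed at 0 in all 9 libraries. Among genes enclosed wholly by the exons of an expressed gene, 20 of 21 on the same strand and 81 of 81 on the opposite strand had 0 counts in every library, so bases shared on the same strand gave next to no counts. Whether the antisense overlap also cost counts cannot be told, since the strand setting is not given and counting by strand would leave the enclosed genes at 0 as well. All 540 coding bases of the transcript Igf2-201 are shared. Shared with neither gene are 2029 bases, 35.5% of the total, in 8 stretches that include alternative first exons. Igf2 values below therefore compare libraries mainly on those bases, and they understate the level of the gene. Igfbp7 shares 85 of its 1209 exon bases with the antisense gene Polr2b.

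The 4 annotated starts of Igf2 fall in unshared stretches, so the 100 bases before each are shown, with those before Igfbp5, the most abundant member, and Igfbp3, the member with the lowest unadjusted p between null and WT. Sequences are from RefSeq on GRCm38.p6, the same assembly as mm10, read 5′ to 3′ on the gene's strand. Capitals mark GGGCGG, or its reverse complement, the core of the GC box bound by Sp1-type factors. All 6 lie on the minus strand.
Igf2, start 142666816, chr7:142666817-142666916: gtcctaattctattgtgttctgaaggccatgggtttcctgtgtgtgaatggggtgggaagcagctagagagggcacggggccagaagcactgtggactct
Igf2, start 142661271, chr7:142661272-142661371: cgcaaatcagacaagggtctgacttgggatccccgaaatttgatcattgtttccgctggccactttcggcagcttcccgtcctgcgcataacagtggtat
Igf2, start 142658804, chr7:142658805-142658904: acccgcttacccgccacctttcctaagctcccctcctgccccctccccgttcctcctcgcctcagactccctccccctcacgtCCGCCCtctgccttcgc
Igf2, start 142657496, chr7:142657497-142657596: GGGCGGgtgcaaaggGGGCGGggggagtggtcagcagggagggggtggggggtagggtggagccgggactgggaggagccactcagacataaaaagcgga
Igfbp5, start 72874865, chr1:72874866-72874965: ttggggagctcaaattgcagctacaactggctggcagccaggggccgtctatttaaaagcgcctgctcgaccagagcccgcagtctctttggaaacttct
Igfbp3, start 7213923, chr11:7213924-7214023: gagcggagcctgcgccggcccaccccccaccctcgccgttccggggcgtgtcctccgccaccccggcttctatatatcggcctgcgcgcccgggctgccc
The 2 Igf2 starts nearest the coding exons hold 1 and 2 copies, and the distal starts, Igfbp5 and Igfbp3 hold none in these windows. Over the family, 6 of 14 annotated promoters, from 5 of the 10 genes, held the motif on either strand, against 8109 of 32851 promoters (24.7%) in the whole RefSeq table. A match is a description of the letters only.

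Igfbp5 dominated the family. Compared per length of exon as TPM, which divides each count by the gene's merged exon bases and scales each library to the same sum, Igfbp5 measured 3116 to 3886 TPM over the 9 libraries and ranked 8 of 33392 genes with a count. It held 81.6 to 91.3% of the summed TPM of the 6 binding proteins. Next came Igfbp4 with a median of 170 TPM, Igfbp2 with 169, Igf1r with 142, Igf2r with 131, Igfbp3 with 110, Igf2 with 95.0 and Igf1 with 79.0. The ranges of neighbours among these 7 genes overlapped, so their order is not fixed by these libraries, although Igf1, at 65.4 to 85.8 TPM, did not reach the range of Igf1r or Igfbp4 in any of the 9. If Igf2 is divided by its unshared bases alone, its median is 268 TPM (134 to 543), above the medians of the other members except Igfbp5. That place is not fixed either, since its range overlaps those of Igfbp2 (83.6 to 413 TPM) and Igfbp4 (147 to 315 TPM). In Null 2 it was 134 TPM, below Igfbp2 at 162 and Igfbp4 at 170. Igfbp7 (0.105 to 13.8 TPM) and Igfbp6 (0.609 to 5.67 TPM) were the rarest, and their medians of 0.980 and 0.932 TPM lay far within the range of each other.

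**Figure D1:**
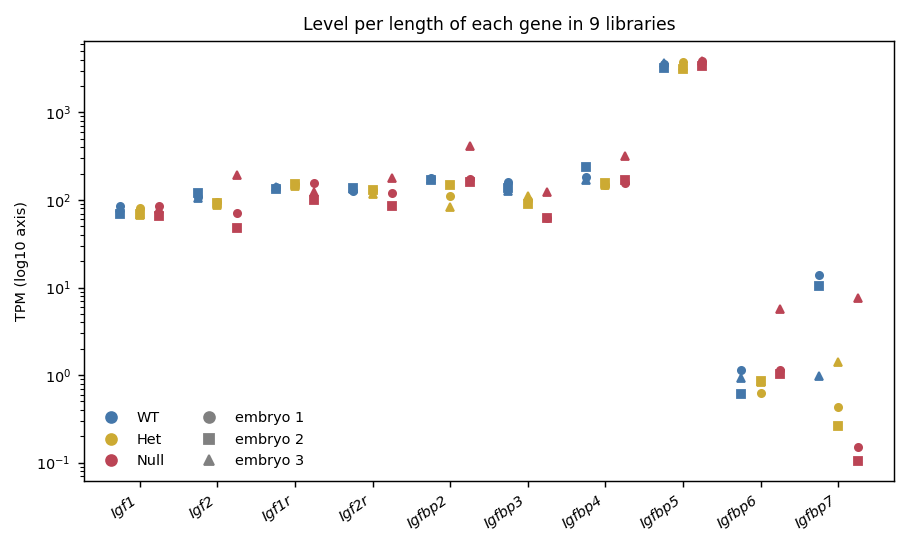
TPM of each IGF family gene (y axis, log10) in the 9 cochlear duct libraries, coloured by genotype, with the marker shape giving the embryo number. Igfbp5 stands above 3116 TPM in every library, 7 genes lie between 47.5 and 413 TPM, and Igfbp6 and Igfbp7 stay at or below 13.8 TPM.

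No member of the family was called differentially expressed between genotypes. A gene was called where the Benjamini-Hochberg adjusted p from edgeR's quasi-likelihood test was under 0.05 and the absolute log2 fold change over 0.5. Between null and WT, 0 of the 9 members tested were called, where 1.71% of all 17168 genes tested were. Between heterozygotes and WT 0 of 9 were called against 0.151% of all genes, and between null and heterozygotes 0 of 8 against 0.615%. Igfbp6 failed the filter on low counts in each comparison. Igfbp7 failed it in the last, with 3, 2 and 11 counts in heterozygotes and 1, 1 and 52 in null embryos. DESeq2 also called 0 members in each comparison, where it called 3.29%, 1.75% and 1.89% of all genes in the same order. At an unadjusted p under 0.05 edgeR counted 1 member for null against WT (12.2% of all genes), 6 for heterozygotes against WT (13.1%) and 1 for null against heterozygotes (11.4%). The median log2 fold change over the members tested was -0.01, -0.27 and 0.14 in the same order. Each pair of comparisons shares 3 libraries, so these values are not independent of each other.

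**Figure D2:**
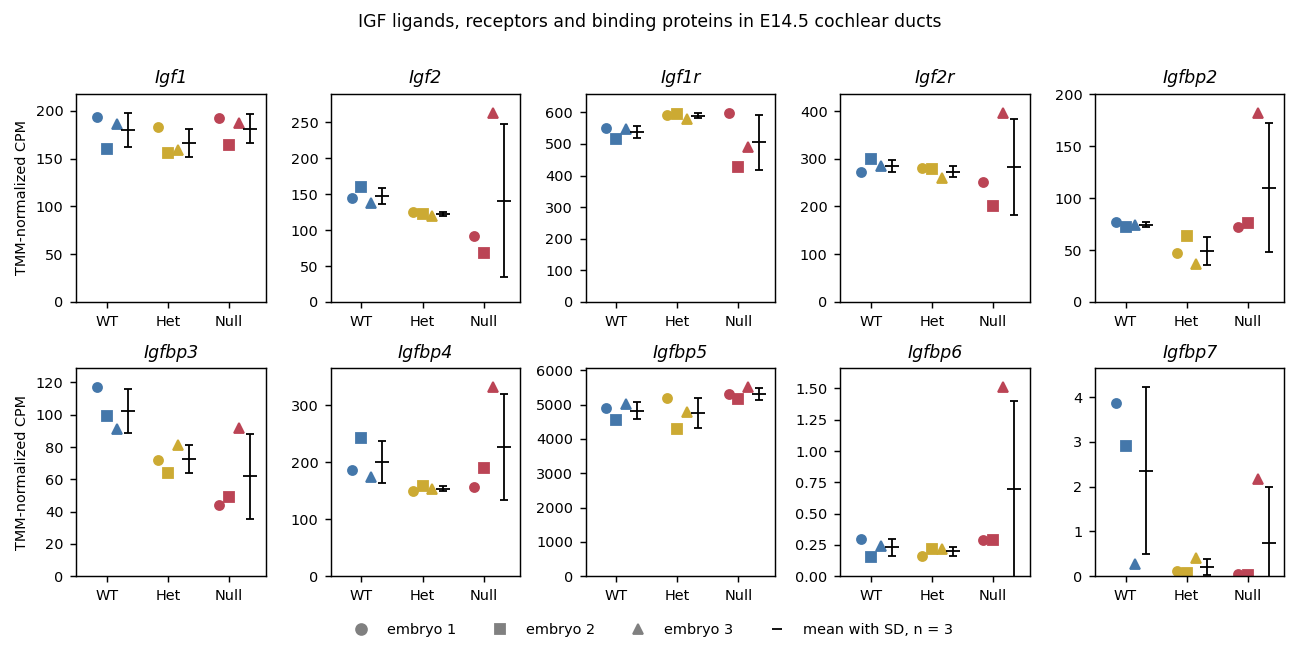
TMM-normalized CPM (y axis, linear from 0) of the 10 genes in each embryo, by genotype, with the mean and SD of 3 embryos beside the points (bars are cut at 0). Null 3 is the highest null library for Igf2, Igf2r, Igfbp2, Igfbp3, Igfbp4, Igfbp5, Igfbp6 and Igfbp7, and lies at 263 CPM for Igf2 where Null 1 and Null 2 lie at 91.3 and 68.8.

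Of the ligands, Igf1 varied little between embryos. WT 1, WT 2 and WT 3 measured 194, 160 and 186 CPM, the heterozygotes 183, 156 and 159 CPM, and the null embryos 193, 164 and 187 CPM. The 3 genotypes overlapped, and the highest library was 1.24 times the lowest in CPM. The log2 fold change was 0.01 for null against WT (95% interval -0.22 to 0.24, edgeR adjusted p = 0.981) and -0.11 for heterozygotes against WT (-0.29 to 0.07, adjusted p = 0.613). These intervals leave no room for a change of 0.5 on the log2 scale in either direction.

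Igf2 measured 144, 160 and 138 CPM in WT, 125, 122 and 119 CPM in heterozygotes and 91.3, 68.8 and 263 CPM in null embryos. All heterozygotes lay below all WT libraries, Null 1 and Null 2 lay below every other library, and Null 3 lay above every other library. Heterozygotes differed from WT by -0.27 on the log2 scale (SE 0.0567, edgeR adjusted p = 0.0766), which is short of both thresholds. DESeq2 gave the same difference an adjusted p of 0.00385, and without WT 3 it was -0.31 (edgeR adjusted p = 0.00814), both short of the fold threshold. For null against WT the log2 fold change was -0.07 with an interval from -1.09 to 0.96 (adjusted p = 0.966). Without Null 3 it was -0.88 (adjusted p = 0.0163) and was called, where 2.51% of all genes were. Against WT 3 alone, in the fit without WT 1, WT 2 and Null 3, it was -0.78 (adjusted p = 0.0436). For null against heterozygotes the log2 fold change was 0.21 (adjusted p = 0.870) with all 6 libraries, -0.61 without Null 3 (adjusted p = 0.0509, not called) and -0.61 in the fit without the 3 libraries (adjusted p = 0.0469), so the last call depends on which fit is used. The heterozygote difference from WT was -0.17 in that fit (adjusted p = 1.000), where 0.0732% of all genes were called. Null 3 also carries the highest mesenchyme and cartilage marker sums, 1504 and 14365 CPM, and the part of these tissues in its Igf2 value was not tested.

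H19, the maternally expressed non-coding RNA next to Igf2, measured 1539, 1934 and 1678 CPM in WT, 1274, 1583 and 1432 CPM in heterozygotes and 1247, 1879 and 3062 CPM in null embryos. As with Igf2, Null 3 was the highest library, while Null 2, the lowest for Igf2, lay within the WT range for H19. Null embryos differed from WT by 0.26 on the log2 scale (edgeR adjusted p = 0.774), and by -0.09 without WT 1, WT 2 and Null 3. Over the 9 libraries the genes whose log2 CPM ran most like Igf2 were Synpo, Ptprm and Fat4, with Pearson r of 0.984, 0.982 and 0.980 among 10354 genes compared. Those most like Igf1 were Dlgap1, Anks6 and Mindy4, with r of 0.893, 0.862 and 0.861. These correlations describe 9 points that share genotype and tissue content.

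Igf1r, the signalling receptor, was at 551, 517 and 547 CPM in WT, 592, 594 and 580 CPM in heterozygotes and 598, 427 and 490 CPM in null embryos. The heterozygotes lay in a narrow band above all WT libraries, and the null embryos spread on both sides of WT. The heterozygote difference was 0.13 on the log2 scale (SE 0.0473, edgeR adjusted p = 0.251) and the null difference from WT was -0.09 (95% interval -0.38 to 0.20, adjusted p = 0.812). Igf2r, the clearance receptor, was at 273, 299 and 284 CPM in WT, 280, 279 and 259 CPM in heterozygotes and 251, 201 and 396 CPM in null embryos. Its null libraries had the same order as for Igf2, Null 1 and Null 2 below WT and Null 3 above. The null difference from WT was -0.01 (-0.52 to 0.49, adjusted p = 0.987), and it ranged from -0.33 to 0.19 when 1 embryo was left out.

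**Figure D3:**
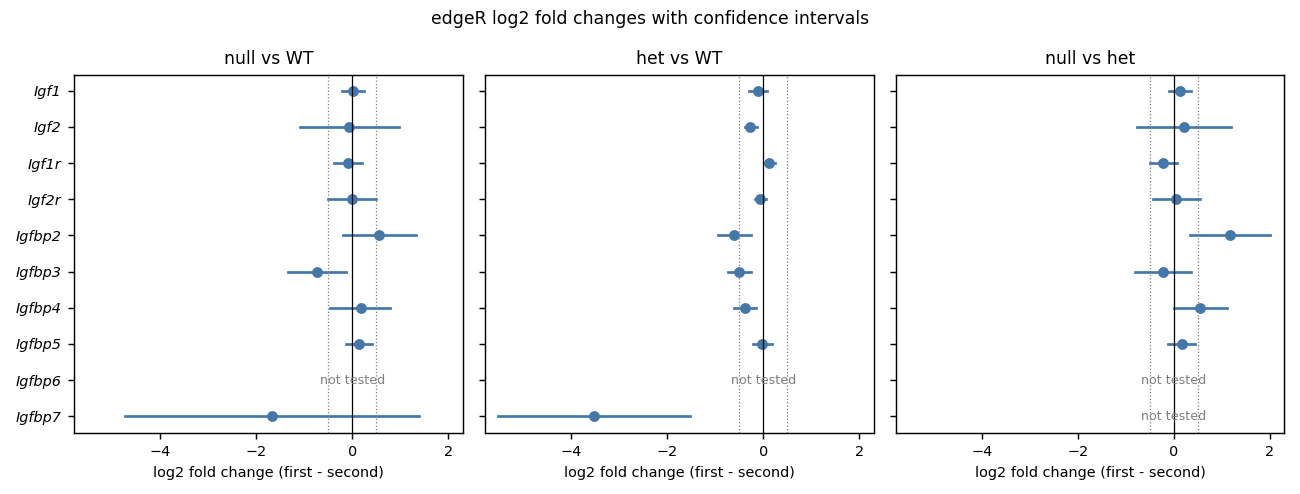
edgeR log2 fold changes (x axis, the first genotype minus the second) of the 9, 9 and 8 genes tested in the 3 comparisons, with 95% intervals as bars and the others written as not tested; dotted lines mark 0.5 in either direction. Intervals are narrow for Igf1, Igf1r and Igfbp5 and widest for Igfbp7, and the null comparisons of Igf2 cover both directions.

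Among the binding proteins with more than a trace of RNA, Igfbp3 had the lowest null mean relative to WT. It is the main IGF carrier of serum and also acts locally in tissues. Igfbp3 measured 117, 98.9 and 91.0 CPM in WT, 72.1, 63.8 and 81.2 CPM in heterozygotes and 44.4, 49.1 and 91.8 CPM in null embryos. All heterozygotes lay below all WT libraries, Null 1 and Null 2 lay below all heterozygotes, and Null 3 reached the lower edge of WT. The group means were 102 ± 13.5, 72.4 ± 8.68 and 61.8 ± 26.1 CPM (SD, n = 3), null ducts holding 60.3% of the WT mean. The log2 fold change was -0.73 for null against WT (SE 0.261, edgeR adjusted p = 0.297) and -0.50 for heterozygotes against WT (SE 0.105, adjusted p = 0.0766), and neither was called. DESeq2 gave the heterozygote difference an adjusted p of 8.44e-05 at a log2 fold change of -0.50, which is not past the fold threshold.

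Leaving out Null 3 moved Igfbp3 to -1.13 for null against WT (edgeR adjusted p = 0.00576) and to -0.63 for null against heterozygotes (adjusted p = 0.0487), both called, where 2.51% and 1.03% of all genes were called. In the fit without WT 1, WT 2 and Null 3 the values were -0.95 against WT 3 alone (adjusted p = 0.0218) and -0.63 against heterozygotes (adjusted p = 0.0469), where 1.09% and 1.05% of genes were called. The heterozygote difference was called without WT 3, at -0.58 (adjusted p = 0.00640), where 2.86% of all genes were called and the WT arm was WT 1 and WT 2, whose mesenchyme markers summed to 613 and 1115 CPM. It stood at -0.32 (adjusted p = 1.000) without WT 1, WT 2 and Null 3. The range over the 6 fits that each left out 1 embryo was -1.13 to -0.54 for null against WT, so the direction held in each of them.

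**Figure D4:**
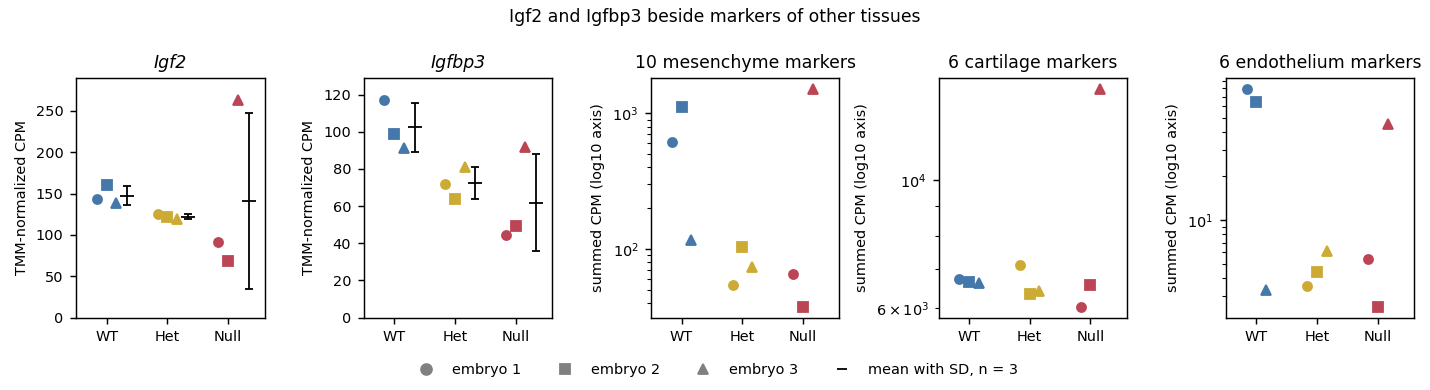
Igf2 and Igfbp3 (TMM-normalized CPM, linear axes from 0, with mean and SD of 3 embryos) beside the summed CPM of marker genes of mesenchyme, cartilage and endothelium (log10 axes that do not start at 0), by genotype and embryo. Null 3 is high in all 5 panels relative to Null 1 and Null 2, while WT 1 and WT 2 exceed WT 3 in mesenchyme and endothelium markers and the 3 WT libraries lie between 6626 and 6727 CPM in cartilage markers.

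Igfbp2 is a binding protein abundant in embryonic epithelia. It measured 76.9, 72.6 and 74.2 CPM in WT, 47.1, 63.1 and 36.4 CPM in heterozygotes and 72.6, 75.7 and 182 CPM in null embryos. The heterozygotes were below every WT and every null library, Null 1 and Null 2 lay within the spread of WT, and Null 3 stood alone at the top. Heterozygotes differed from WT by -0.60 on the log2 scale (SE 0.153, edgeR adjusted p = 0.117) and null embryos differed from heterozygotes by 1.17 (SE 0.364, adjusted p = 0.288), or by 0.60 without Null 3 (adjusted p = 0.221). For null against WT the value was 0.56 (95% interval -0.20 to 1.32, adjusted p = 0.560), and it was -0.01 without Null 3.

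Igfbp4, which holds IGFs in the tissue until it is cut by PAPP-A, measured 187, 243 and 174 CPM in WT, 149, 158 and 154 CPM in heterozygotes and 157, 190 and 332 CPM in null embryos. The heterozygotes again lay below all WT libraries, and the null embryos spanned the whole WT range. The log2 fold changes were -0.38 for heterozygotes against WT (SE 0.103, edgeR adjusted p = 0.137) and 0.17 for null against WT (95% interval -0.46 to 0.79, adjusted p = 0.846). The heterozygote difference was -0.48 without WT 3 (adjusted p = 0.00885, short of the fold threshold), -0.23 without WT 2 (adjusted p = 0.201), and -0.17 without WT 1, WT 2 and Null 3 (adjusted p = 1.000). Without Null 3 the null difference from WT was -0.22 (adjusted p = 0.557) and that from heterozygotes moved from 0.55 to 0.17.

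The most abundant member, Igfbp5, a matrix-binding carrier, measured 4912, 4535 and 5023 CPM in WT, 5187, 4299 and 4775 CPM in heterozygotes and 5298, 5156 and 5503 CPM in null embryos. In CPM every null library lay above every WT library, the single case of separated values among the members in this comparison, where 9.85% of all genes tested were higher without overlap. In TPM the groups overlapped, with Null 2 at 3395 TPM below WT 1 at 3530 and WT 3 at 3638. The log2 fold change was 0.14 for null against WT (SE 0.118, 95% interval -0.13 to 0.41, edgeR adjusted p = 0.697). Heterozygotes differed from WT by -0.02 (-0.22 to 0.18, adjusted p = 0.957). In heterozygotes against WT, 4 members were lower in heterozygotes without overlap (Igf2, Igfbp2, Igfbp3 and Igfbp4) and 1 was higher (Igf1r), where 9.50% and 8.46% of all genes tested were. In null against heterozygotes the 1 tested member with separated values was Igfbp2, higher in null embryos, where 9.24% of genes were.

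Igfbp7, a weak IGF binder that is typical of blood vessels, had 105, 74 and 8 counts in WT, 3, 2 and 11 counts in heterozygotes and 1, 1 and 52 counts in null embryos. Its 3 highest libraries were WT 1, WT 2 and Null 3, the same 3 that were highest in all 6 endothelium markers. The log2 fold change was -3.52 for heterozygotes against WT (SE 0.897, edgeR adjusted p = 0.117) and -0.44 without WT 1, WT 2 and Null 3 (adjusted p = 1.000), and the part of endothelium in this difference was not tested. For null against WT it was -1.68 (adjusted p = 0.675), and -5.85 without Null 3 (adjusted p = 0.0739), a fit in which the null embryos hold 1 count each. Igfbp6, which prefers IGF2, had 8, 4 and 7 counts in WT, 4, 6 and 6 in heterozygotes and 7, 9 and 36 in null embryos. Apart from Null 3 it stayed within 4 to 9 counts. The null counts lay above those of heterozygotes, edgeR's filter left the gene out, and DESeq2 gave null against heterozygotes a log2 fold change of 1.80 (adjusted p = 0.426).

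The rest of the pathway was read from a list of 54 other genes, of which 48 were tested. Between null and WT 1 was called higher and 2 lower, where 0.920% and 0.786% of all genes were called in those directions. Between heterozygotes and WT 0 were called by edgeR, where 0.151% of all genes were, and 0 by DESeq2, where 1.75% were, and between null and heterozygotes 1 was called lower, where 0.322% of all genes were. At an unadjusted p under 0.05 the list held 8 genes for null against WT, 10 for heterozygotes against WT and 7 for null against heterozygotes, where 12.2%, 13.1% and 11.4% of all genes passed. The median log2 fold changes of the list were -0.07, -0.02 and -0.05. None of the 6 RAS-MAPK genes was called by edgeR in any comparison, and none had an unadjusted p under 0.05.

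Among the genes of this list that were called, the largest difference was in Pappa2, which encodes pappalysin 2, the protease that cuts IGFBP3 and IGFBP5 and so frees the ligands. Pappa2 (chr1:158711727-158980490, minus strand) measured 65.2, 57.9 and 59.1 CPM in WT, 58.0, 50.3 and 58.2 CPM in heterozygotes and 24.2, 16.7 and 21.3 CPM in null embryos. All 3 null embryos lay far below the other 6 libraries, and WT and heterozygotes overlapped. Null ducts held 34.1% of the WT level, a log2 fold change of -1.56 (SE 0.142, edgeR adjusted p = 0.00316), and differed from heterozygotes by -1.43 (SE 0.144, adjusted p = 0.00710). Heterozygotes differed from WT by -0.13 (95% interval -0.29 to 0.04, adjusted p = 0.529). In the fit without WT 1, WT 2 and Null 3 the differences were -1.53 from WT 3 and -1.44 from heterozygotes, both called. The null difference from WT was called in 6 of 6 fits that left out 1 embryo and the difference from heterozygotes in 4 of 6, being lost without heterozygote 1 (adjusted p = 0.0641) or 3 (adjusted p = 0.0684). Pappa2 is among the genes that the study listed from these same samples, so its place in the list is not independent evidence. Null 3, which stood apart for Igf2, lay between Null 1 and Null 2 here.

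The other genes that act on binding proteins were not called. Pappa, whose protease cuts IGFBP4, was low, at 1.81, 2.48 and 1.40 CPM in WT, 1.20, 1.76 and 2.22 CPM in heterozygotes and 1.11, 0.935 and 1.13 CPM in null embryos. The null embryos lay below all other libraries, and their log2 difference from WT was -0.84 (SE 0.300, edgeR adjusted p = 0.299), or -0.44 without WT 1, WT 2 and Null 3. Htra1, a serine protease that cuts IGFBP5, was at 2.66, 2.13 and 1.46 CPM in WT, 1.52, 1.01 and 1.17 CPM in heterozygotes and 1.11, 1.06 and 4.90 CPM in null embryos, with Null 3 again on top and a log2 fold change of 0.17 (adjusted p = 0.934). In the 6 genes of this group, which also holds Adam12 and the inhibitors Stc1 and Stc2, 4 were lower and 2 higher in null than in WT, and Pappa2 alone was called.

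**Figure D5:**
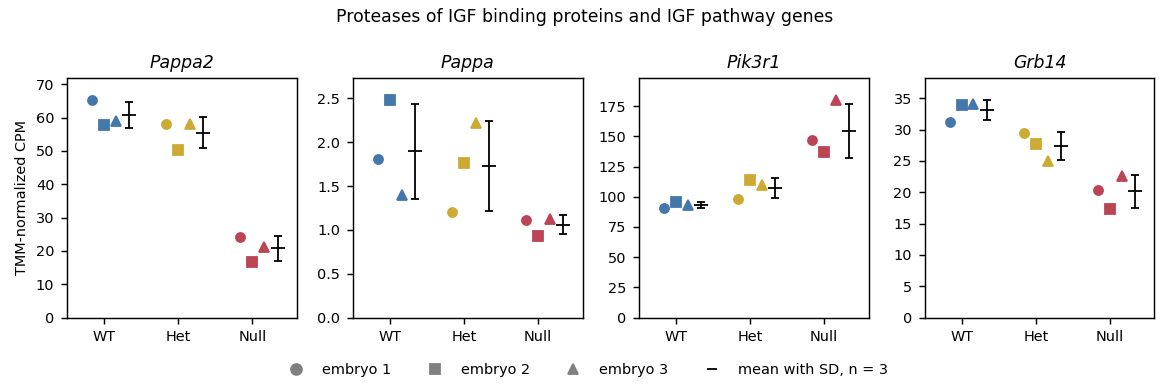
TMM-normalized CPM (y axis, linear from 0) of the proteases Pappa2 and Pappa, the PI3K subunit gene Pik3r1 and the receptor adaptor Grb14 in each embryo, by genotype, with the mean and SD of 3 embryos beside the points. Null embryos lie below all others for Pappa2 (16.7 to 24.2 CPM) and Grb14 (17.4 to 22.6 CPM) and above all others for Pik3r1 (137 to 180 CPM).

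Downstream of the receptor, Pik3r1 was higher and Grb14 lower in null embryos. Pik3r1 encodes the regulatory subunit p85-alpha of PI3K, and measured 90.7, 95.6 and 93.1 CPM in WT, 98.0, 114 and 110 CPM in heterozygotes and 147, 137 and 180 CPM in null embryos. The 3 genotypes did not overlap, with null ducts at 166% of the WT mean and a log2 fold change of 0.73 (SE 0.106, edgeR adjusted p = 0.0168). Grb14, an adaptor that binds and restrains the insulin receptor family, measured 31.2, 33.9 and 34.1 CPM in WT, 29.4, 27.7 and 25.0 CPM in heterozygotes and 20.4, 17.4 and 22.6 CPM in null embryos. Here too the 3 genotypes did not overlap, null ducts holding 61.0% of the WT mean at a log2 fold change of -0.72 (SE 0.122, adjusted p = 0.0319). Of all genes tested, 9.85% were higher in null than in WT embryos without overlap, and 9.50% were lower in heterozygotes than in WT. The share separated over all 3 genotypes was not counted. Neither gene was called between null embryos and heterozygotes. The log2 differences there were 0.53 for Pik3r1 (edgeR adjusted p = 0.123) and -0.44 for Grb14 (adjusted p = 0.256). The call for Pik3r1 held in 3 of the 6 fits that left out 1 embryo and was lost without any of the WT embryos (adjusted p of 0.0766 to 0.117), while that for Grb14 held only without Null 3 (adjusted p = 0.0143). Over those fits of 5 embryos the log2 fold changes stayed between 0.61 and 0.82 for Pik3r1 and between -0.81 and -0.62 for Grb14. Without WT 1, WT 2 and Null 3 the call for Pik3r1 was lost (0.63, adjusted p = 0.0633) and Grb14 was called (-0.84, adjusted p = 0.0419).

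The insulin receptor gene Insr measured 164, 163 and 173 CPM in WT, 168, 170 and 163 CPM in heterozygotes and 175, 130 and 159 CPM in null embryos. The genotypes overlapped, and null embryos differed from WT by -0.11 on the log2 scale (95% interval -0.37 to 0.14, edgeR adjusted p = 0.748). Ins1 had 0 counts in each library, which by counting error alone allows up to 0.125 CPM, and Ins2 had at most 3 counts. The liver-type carriers were near the floor, with 0 to 6 counts of Igfbp1 and 2 to 23 counts of Igfals per library, and were not tested. Among the genes that bind Igf2 mRNA, Igf2bp1 had an adjusted p of 0.0498 between heterozygotes and WT at a log2 fold change of 0.28, below the fold threshold.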

How the data were processed

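The values the authors deposited were raw counts of reads per Ensembl gene, one table per embryo, made from TruSeq mRNA single reads aligned to mm10 with STAR. The submitters' processing notes name cutadapt 1.13 and HTSeq 0.6.1p1. The counting mode, strand setting and annotation release are not given in the sources used here, and all 37 mitochondrial genes held 0 counts. Names, positions and exon lengths came from GENCODE M21 on the same build, which named 54165 of 54232 genes.

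Each pair of genotypes was fitted on its 6 libraries with edgeR 4.0.16 in R 4.3.3 (TMM, filterByExpr with a minimum count of 10, quasi-likelihood test, Benjamini-Hochberg adjustment over all genes tested, threshold 0.05 and an absolute log2 fold change of 0.5). DESeq2 1.42.0 was an alternative. CPM used TMM factors of all 9 libraries, and log2 CPM a prior count of 2. On simulated counts for null against WT the procedure called 41 of 50 genes at a log2 change of -2, 28 of 50 at -1, 31 of 50 at 1, 44 of 50 at 2, and 15 of 16968 unchanged genes.

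No 2 libraries of a genotype differed by as little as sampling noise (lowest chi-square per gene 5.70). Replicate numbers did not pair the libraries throughout. Deviations of same-numbered libraries correlated by -0.340 to 0.373 and passed 0.1 in 4 of 9 pairs, so fits were unpaired. Between WT and heterozygotes the same-numbered values were 0.373, 0.211 and -0.0283, against -0.371 to 0.239 for different numbers. Members, pathway list and markers were chosen with earlier results of these data known. Named genes were all members, the pathway genes called in any comparison, Pappa, Pappa2, Htra1, Igfbp1, Igfals, Insr and H19, and for Igf1 and Igf2 the 3 genes most like them among those with a mean of at least 10 CPM. Igf2os, Igf2bp1, Ins1 and Ins2 were added after their values were seen. Alternatives were DESeq2, other filters and scaling, all 9 libraries in one fit, a replicate block, no fold threshold, other exon lengths and leaving out each embryo.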

Additional observations from a re-analysis of the deposited data

How the results depend on the processing

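There were 3 embryos per genotype, 24095322 to 30819118 counts per library and 3 libraries that stand apart. Wide intervals limit Igf2, Igf2r, Igfbp2, Igfbp3 and Igfbp4 in the null comparisons, and Igfbp7 in null against WT. Of 650 fold changes under alternatives, 584 kept their direction and whether they were called, 38 reversed, 15 gained and 13 lost a call by both thresholds. The cause of these changes was not tested. Genes called between null and WT (293) numbered 618 with DESeq2, 476 without a filter on low counts, 468 with all 9 libraries in one fit, 133 with a replicate block, and 68 to 446 when 1 embryo was left out. Between heterozygotes and WT (26) they numbered 319 with DESeq2, 684 without a filter, 0 in the fit of all 9, 197 with a replicate block, 45 with no fold threshold, 14 without WT 1, WT 2 and Null 3, and 0 to 505 when 1 embryo was left out. Between null and heterozygotes (105) they numbered 354, 366, 164, 52 with a replicate block, 201 without WT 1, WT 2 and Null 3, and 12 to 182. Members called between null and WT numbered 2 without WT 1, WT 2 and Null 3 (Igf2 and Igfbp3, both lower, against WT 3 alone, where 208 of 19133 genes, 1.09%, were called) and 0 to 2 with 1 embryo left out (the same genes, without Null 3). Between heterozygotes and WT they numbered 2 without a filter (Igfbp2 and Igfbp7), 1 with a replicate block (Igfbp2, adjusted p = 0.0474) and 0 to 2 with 1 embryo left out (Igfbp3 and Igfbp7 without WT 3, where 2.86% of all genes were called and WT 1 and WT 2 remained). Between null and heterozygotes they numbered 1 without a filter (Igfbp2, where 366 genes were called). They numbered 2 without WT 1, WT 2 and Null 3 (Igf2 and Igfbp3, where 1.05% of all genes were called). With 1 embryo left out they numbered 0 to 1 (Igfbp3 without Null 3, where 1.03% of all genes were called). Pathway genes called numbered 1 between null and WT with a replicate block (Pappa2, adjusted p = 0.0102, with Pik3r1 at 0.0579 and Grb14 at 0.109) and 1 to 3 with 1 embryo left out, 1 between heterozygotes and WT with no fold threshold and 0 to 1 with 1 left out, and 2 (DESeq2), 3 (no filter), 2 (all 9) and 0 to 1 between null and heterozygotes.

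Fold changes that reversed for null against WT were Igf1 (-0.0020 with library totals, -0.05 without WT 1, WT 2 and Null 3), H19 (-0.09 in that fit) and Htra1 (-0.41 in that fit, -0.19 with a replicate block). With 1 embryo left out the null against WT values ranged from -0.06 to 0.08 for Igf1, -0.88 to 0.27 for Igf2, -0.23 to 0.02 for Igf1r, -0.33 to 0.19 for Igf2r, -0.0063 to 0.79 for Igfbp2, -0.22 to 0.37 for Igfbp4, -0.13 to 0.52 for H19, -0.93 to 0.53 for Htra1 and -0.21 to 0.0063 for Insr. For heterozygotes against WT, Insr (-0.04) and Pappa (0.32) reversed without WT 1, WT 2 and Null 3, and leaving out 1 embryo gave -0.08 to 0.05 for Igfbp5, -0.01 to 0.04 for Insr and -0.34 to 0.12 for Pappa. For null against heterozygotes, Igf2 (-0.61), Igf2r (-0.27) and Htra1 (-0.17) reversed without the 3 libraries, Igf2 (-0.06) and Igf2r (-0.0086) with a replicate block, and leaving out 1 embryo gave -0.61 to 0.54 for Igf2, -0.27 to 0.25 for Igf2r and -0.18 to 1.29 for Htra1. Per unshared base, the WT mean of Igf2 was 314 TPM against 111 per exon base.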
